A study of Homo sapiens with 6 samples.

Results

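Hemidesmosomes are the junctions by which basal epithelial cells hold on to the laminin of the basement membrane. The genes described are LAMA3, LAMB3, ITGA6, ITGB4, COL17A1, DST and CD151. They were chosen by name as components of laminin-332 and of the hemidesmosome, and estimated counts were summed over all listed transcripts of each. These are 7 of 34486 genes with a matched transcript, and all 7 were among the 13047 genes with enough counts to be tested. The libraries were made from total RNA of MCF10A, a human breast epithelial cell line that is immortal but forms no tumours, labelled wild type in genotype. All cells were grown in medium with horse serum, epidermal growth factor, insulin, hydrocortisone and cholera toxin, and all were reverse-transfected with siRNA at 10 nM for 48 h. In 3 libraries the siRNA was against PDCD4, an RNA-binding tumour suppressor (siPDCD4), and in 3 libraries it was a control siRNA (siCT). Both groups therefore carried the transfection itself, and they differed in the siRNA. No label tells whether replicates were cultured separately, and the p-values therefore rest on a spread among 3 libraries a group that may be technical.

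Laminin-332 is a trimer of an alpha3, a beta3 and a further chain, secreted by epithelial cells, and the alpha3 and beta3 chains come from LAMA3 and LAMB3. Integrin alpha6beta4, encoded by ITGA6 and ITGB4, binds this laminin from the cell side, and the long cytoplasmic domain of beta4 recruits the plaque. Collagen XVII (COL17A1) and the tetraspanin CD151 sit in the membrane beside the integrin, and the epithelial form of dystonin (DST) together with plectin ties the plaque to keratin filaments. The question asked of each gene was whether its mRNA differed between siPDCD4 and siCT.

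Totals of estimated counts lay between 13410441 and 21828931 per library, and each of the 7 genes had at least 2927 counts in every library. siCT replicate 3 had the lowest total and the lowest share of matched counts on protein-coding transcripts, 70.3%, against 73.3% to 79.9% in the other 5 libraries. Within siCT this library also had the highest LAMA3, LAMB3, ITGB4 and CD151 and the lowest ITGA6, COL17A1 and DST, so the fold change without it is given for each gene, and its part in them was not tested. The silenced gene was low in every siPDCD4 library. With siCT, replicates 1 to 3 had 90.4, 89.0 and 61.1 CPM of PDCD4, and with siPDCD4 they had 9.15, 7.43 and 8.62 CPM, where CPM is the count scaled to library size between libraries and corrected for transcript length. Values of single libraries are given in this order, replicate 1 first, throughout. Its mRNA fell by 3.25 ± 0.17 on the log2 scale (adjusted p = 2.15e-05, edgeR quasi-likelihood test). Markers of basal epithelium were high, but no markers of other epithelia were read, so these values do not tell breast from them. The basal markers KRT5, KRT14, KRT17, TP63 and CDH3 summed to between 1695 and 2084 TPM in siCT and between 1627 and 2052 TPM in siPDCD4. TPM is a level per length, scaled to the same sum in each library. The 6 fibroblast markers summed to at most 2.12 TPM, with DPT at 0, the 4 endothelial markers to at most 0.697 TPM, and the 4 melanocyte markers to at most 0.857 TPM, with TYR and DCT at 0. The haematopoietic markers PTPRC, CD3E and CD14 summed to between 4.35 and 5.71 TPM in siCT and between 6.79 and 8.47 TPM in siPDCD4, without overlap. CD3E was at 0, whereas CD14, named after its value was seen, differed by 0.68 ± 0.17 on the log2 scale without passing (adjusted p = 0.187, edgeR), and its part in the results was not tested. In RNA of whole cultures, fewer cells with a transcript and less of it per cell cannot be told apart.

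The sequences below belong to the 3 genes whose groups did not overlap. Each is the 250 bases upstream of the start of the most abundant transcript, taken from RefSeq (GRCh38.p14) and written 5′ to 3′ on the gene's strand. For LAMA3 this is chr18:23872770-23873019 on the plus strand before the start of LAMA3-201, for DST chr6:56642890-56643139 on the minus strand before DST-205, and for ITGA6 chr2:172427336-172427585 on the plus strand before ITGA6-212. Other transcripts begin inside these stretches, DST-201 at 56642996, ITGA6-204 at 172427354 and ITGA6-203 at 172427418. Capitals mark the letters TGANTCA, where N is any base. This motif is wider than the usual site of AP-1 transcription factors (JUN and FOS dimers), TGACTCA or TGAGTCA. The motif was chosen after the sequences had been seen.
LAMA3-201 upstream: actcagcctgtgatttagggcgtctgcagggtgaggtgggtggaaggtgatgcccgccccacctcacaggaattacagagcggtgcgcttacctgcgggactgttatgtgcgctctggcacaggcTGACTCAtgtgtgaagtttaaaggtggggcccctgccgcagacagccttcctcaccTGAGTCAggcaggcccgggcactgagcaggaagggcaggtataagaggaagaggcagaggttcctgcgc
DST-205 upstream: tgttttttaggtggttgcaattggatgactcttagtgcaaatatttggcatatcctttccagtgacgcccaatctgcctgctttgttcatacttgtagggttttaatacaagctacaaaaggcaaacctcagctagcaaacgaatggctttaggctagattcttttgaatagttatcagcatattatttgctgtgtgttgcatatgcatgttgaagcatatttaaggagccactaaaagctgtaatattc
ITGA6-212 upstream: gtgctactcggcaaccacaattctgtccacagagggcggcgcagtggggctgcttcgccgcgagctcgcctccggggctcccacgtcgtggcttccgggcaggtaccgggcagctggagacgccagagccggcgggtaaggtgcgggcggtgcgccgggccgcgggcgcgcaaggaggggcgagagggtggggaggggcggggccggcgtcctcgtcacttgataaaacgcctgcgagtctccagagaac
The LAMA3 stretch held the motif at 2 places, beginning 125 and 69 bases before the start, and the DST and ITGA6 stretches held none. TGANTCA reads as itself on the other strand, so a single search covered both strands. Across all 35116 promoters of the table, 2308 (6.57%) held TGANTCA in the same 250 bases and 141 (0.402%) held it at least 2 times. These shares count any base as N and are not those of the narrower AP-1 site. The table had entries for 5 of the 7 genes, with 10 starts, and 2 of the 10 held the motif. The other was the innermost of the 3 LAMB3 starts, with a match 67 bases upstream, and no transcript in the files begins exactly there. The stretches also differed in base composition, with 60.4% G or C for LAMA3, 37.6% for DST and 71.6% for ITGA6, against a median of 58% over the table.

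The 7 mRNAs were abundant in these cells. Compared per length, as TPM, they stood between percentiles 91.2 and 96.3 of the genes tested in siCT. CD151 had 168 ± 12.7 TPM, LAMB3 156 ± 35.5, ITGA6 123 ± 11.3, ITGB4 94.7 ± 16.3, COL17A1 82.4 ± 6.69, LAMA3 80.9 ± 4.26 and DST 70.1 ± 5.24 TPM (mean ± SD, n = 3). Among neighbours in this order, LAMA3 and DST had siCT ranges that did not overlap, at 76.4 to 84.9 TPM and 65.1 to 75.5 TPM. All other neighbours overlapped in siCT, so that LAMA3 did not differ in gene TPM from COL17A1 beyond their spread, nor CD151 from LAMB3. Gene TPM also sums short transcripts, such as COL17A1-203 (537 bases, 17.8 ± 2.42 TPM in siCT), and the order depends on them. The most abundant transcripts alone lay in siCT at 69.9 to 76.6 TPM for LAMA3-201 and 48.9 to 57.8 TPM for COL17A1-208. For ITGB4-203 the siCT range was 31.7 to 50.2 TPM, so by this measure LAMA3 stood above both. In siPDCD4, LAMB3 (139 ± 1.39 TPM) and ITGA6 (142 ± 5.15 TPM) were the one pair of these neighbours to overlap.

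**Figure D1:**
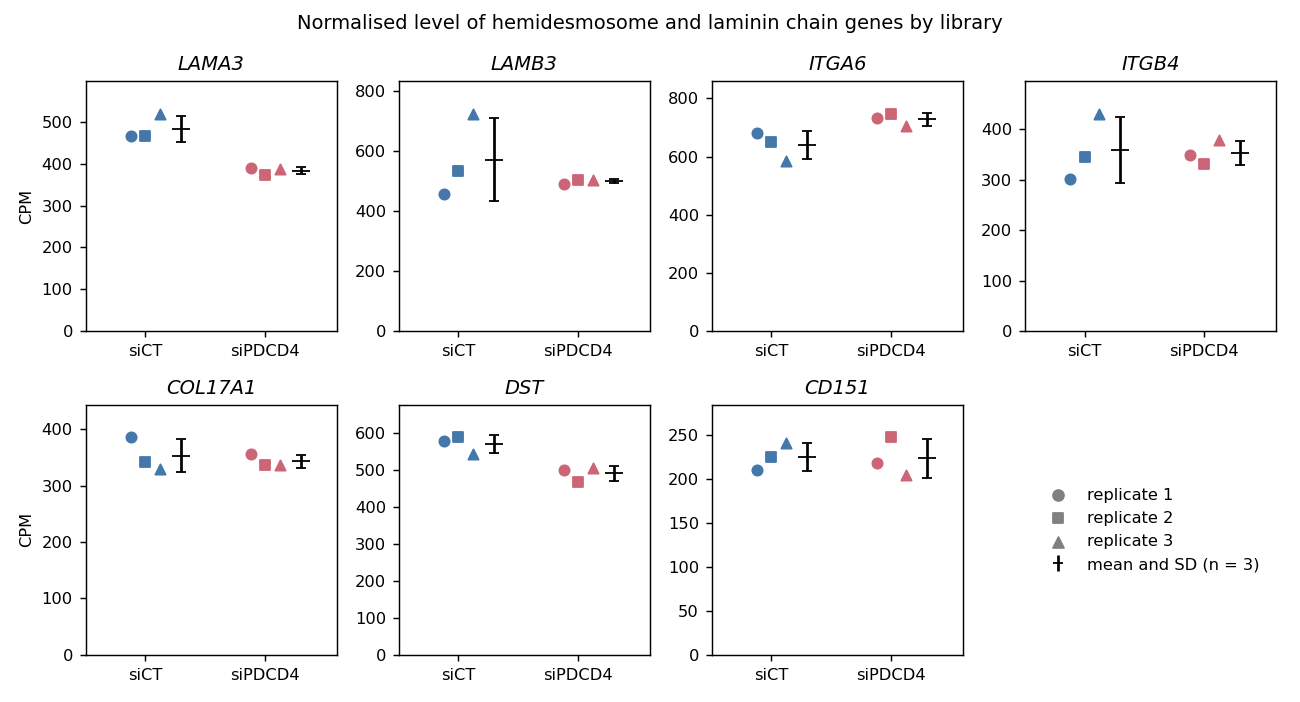
Normalised level (CPM) of each gene in each library, with siCT in blue and siPDCD4 in red, symbols for the replicates, and the mean and SD (n = 3) in black. LAMA3 and DST lie lower in all 3 siPDCD4 libraries, ITGA6 lies higher, and in the other 4 genes the groups overlap.

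Of the 7 genes, none passed a false discovery rate (FDR) of 5% in edgeR, a threshold passed by 56 of the 13047 genes tested (0.429%), 34 lower and 22 higher in siPDCD4. At an unadjusted p under 0.05 there were 3 of the 7 (LAMA3, DST and ITGA6), against 8.62% of all genes. With DESeq2, which called 1.46% of its genes at an FDR of 5%, LAMA3 was called and the other 6 were not. All 3 siPDCD4 libraries lay below all 3 siCT libraries for LAMA3 and DST, as for 7.14% of all genes, and above them for ITGA6, as for 6.81%. The median log2 fold change of the 7 was -0.04, with 6 below 0 and 1 above, against -0.01 over all genes tested.

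LAMA3 encodes the alpha3 chain, which carries the integrin-binding end of laminin-332, and lies on chromosome 18 from 23689453 to 23956222 (GRCh38). Its level was 466, 466 and 520 CPM with siCT and 390, 373 and 387 CPM with siPDCD4. Every siPDCD4 library was lower than every siCT library, and siCT replicate 3 was the highest of the 6. The means were 484 ± 31.2 CPM and 383 ± 8.67 CPM (SD, n = 3), a difference of -20.8%. The log2 fold change was -0.34 ± 0.08 (SE) with a 95% interval from -0.51 to -0.16, and its p ranked 144 of 13047. It did not pass in edgeR (adjusted p = 0.154) and passed in DESeq2 (adjusted p = 0.0127). Without siCT replicate 3 it was -0.28 (adjusted p = 0.136 in edgeR).

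LAMB3 encodes the beta3 chain, which pairs with alpha3 in the coiled coil of the trimer (chromosome 1, 209614870 to 209652425). The level was 457, 533 and 725 CPM in siCT and 492, 505 and 505 CPM in siPDCD4. The siPDCD4 libraries were close together and lay inside the wide siCT range, which siCT replicate 3 stretched upward. The log2 fold change was -0.19 ± 0.15 with a 95% interval from -0.51 to 0.13 (adjusted p = 0.858, edgeR). It became 0.017 without siCT replicate 3, so the direction of LAMB3 rested on that library.

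ITGA6 encodes the alpha6 integrin subunit, the partner of beta4 in hemidesmosomes and of beta1 elsewhere (chromosome 2, 172427354 to 172506459). Its level was 680, 650 and 586 CPM in siCT and 733, 748 and 705 CPM in siPDCD4. Every siPDCD4 library was higher, with the lowest value of all in siCT replicate 3. The means were 639 ± 47.8 CPM and 729 ± 21.8 CPM (SD, n = 3), a difference of 14.1%. ITGA6 had a log2 fold change of 0.19 ± 0.08 with a 95% interval from 0.0021 to 0.38 and did not pass (adjusted p = 0.568, edgeR). Without siCT replicate 3 the value was 0.13.

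ITGB4 encodes the beta4 subunit, whose only known partner is alpha6 (chromosome 17, 75721328 to 75757818). The level was 302, 346 and 431 CPM in siCT and 350, 332 and 379 CPM in siPDCD4. All 3 siPDCD4 values lay inside the siCT range, which siCT replicates 1 and 3 bounded. The log2 fold change was -0.02 ± 0.12 with a 95% interval from -0.29 to 0.25 (adjusted p = 0.988, edgeR). It was 0.13 without siCT replicate 3 and 0.020 without siPDCD4 replicate 2, hence its sign was not fixed by these libraries.

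COL17A1 encodes collagen XVII, a transmembrane collagen whose ectodomain is shed by proteases (chromosome 10, 104031286 to 104085880). Its level was 385, 343 and 330 CPM in siCT and 355, 337 and 336 CPM in siPDCD4. Here siCT replicate 1 was the highest and the groups overlapped. The log2 fold change was -0.04 ± 0.08 with a 95% interval from -0.23 to 0.15 (adjusted p = 0.974, edgeR). It was -0.087 without siCT replicate 3, and it turned to 0.028 without siCT replicate 1 and to 0.022 without the correction for transcript length.

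CD151 encodes a tetraspanin that associates with laminin-binding integrins (chromosome 11, 832887 to 839831). The level was 209, 224 and 240 CPM in siCT and 218, 247 and 204 CPM in siPDCD4. The highest and the lowest library were both siPDCD4. The log2 fold change was -0.01 ± 0.09 with a 95% interval from -0.22 to 0.20 (adjusted p = 0.993, edgeR). CD151 was at 0.041 without siCT replicate 3, 0.0064 without siPDCD4 replicate 1 and 0.060 without siPDCD4 replicate 3.

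DST encodes dystonin, a plakin that in its epithelial form (BPAG1e, BP230) links the plaque to keratins (chromosome 6, 56457987 to 56954830). Its level was 580, 589 and 544 CPM in siCT and 500, 468 and 506 CPM in siPDCD4. Every siPDCD4 library was lower than every siCT library, including siCT replicate 3, the lowest of its group. The means were 571 ± 23.6 CPM and 491 ± 20.0 CPM (SD, n = 3), a difference of -14.0%. The log2 fold change was -0.22 ± 0.08 with a 95% interval from -0.39 to -0.04, and DST passed neither in edgeR (adjusted p = 0.427) nor in DESeq2 (adjusted p = 0.185). Without siCT replicate 3 the value was -0.25.

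**Figure D2:**
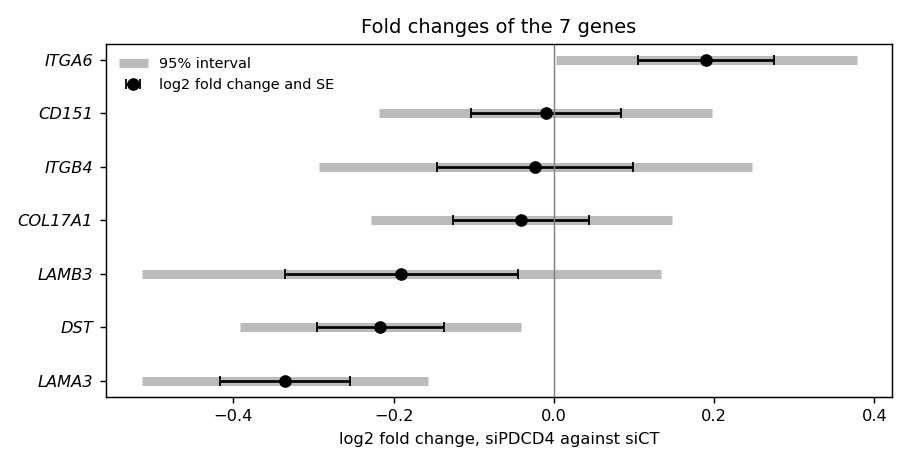
Log2 fold change of each gene in siPDCD4 against siCT, with the SE as black bars and the 95% interval in grey. The intervals of LAMA3, DST and ITGA6 leave out 0, from -0.51 to -0.16, from -0.39 to -0.04 and from 0.0021 to 0.38, and those of the other 4 genes span it. Each interval is for a single gene and is not adjusted for the number of genes tested.

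Both genes of the integrin were thus measured with different shifts, 0.19 for ITGA6 and -0.02 for ITGB4, and their 95% intervals overlapped widely. The same held for the laminin chains, at -0.34 for LAMA3 and -0.19 for LAMB3. The difference between partner genes was not tested.

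Gene totals hide transcripts with different ends, and several of these genes are known for them. The files list 119 transcripts of the 7 genes, of which 66 had enough counts to be tested. None of the 47375 transcripts tested passed an FDR of 5% in edgeR, these 66 and the main transcript of the silenced gene included (PDCD4-201, log2 fold change -2.91 ± 0.23, adjusted p = 0.240, against 4.5e-38 in DESeq2). Of the 66, 1 had an unadjusted p under 0.05, against 3.11% of all transcripts. That one was LAMA3-201 (5618 bases, chr18:23873020-23955066), which held 91.0% of the LAMA3 counts. It stood at 69.9, 74.5 and 76.6 TPM in siCT and at 56.7, 55.6 and 57.2 TPM in siPDCD4. The groups did not overlap, at means of 73.7 ± 3.45 TPM and 56.5 ± 0.844 TPM (SD, n = 3). How often groups lay apart over all transcripts was not counted. LAMA3-201 held most of the LAMA3 counts, so it is not separate from the gene total. Its log2 fold change was -0.39 ± 0.07 (adjusted p = 0.394, edgeR), and DESeq2 on transcripts, which called 1.14% of all transcripts, gave an adjusted p of 7.9e-19. The 2 tools thus disagreed on the call for LAMA3-201 while giving the same size, -0.39 in both.

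LAMA3 has transcripts from an upstream start, which encode the long alpha3B chain, and from an inner start, which encode the alpha3A chain found in hemidesmosomal laminin. Among protein-coding transcripts, LAMA3-201 alone had counts from the inner start and LAMA3-203 (9834 bases, from position 23689684) alone from the upstream start. LAMA3-203 stood at 2.29, 2.74 and 2.34 TPM in siCT and at 2.50, 2.59 and 2.69 TPM in siPDCD4, so that the groups overlapped. As a share of both starts, the upstream start made up 3.23% ± 0.300 in siCT and 4.39% ± 0.140 in siPDCD4 (SD, n = 3), and the groups did not overlap. How often such shares lay apart in other genes was not counted. Protein-coding transcripts that begin at neither start, such as LAMA3-215 (8171 bases, 1.72% of the gene's counts), were left out of the share. Taken over estimated counts in place of TPM, a choice made after seeing the data, the shares were 5.59% and 7.55%. The test of isoform shares did not call LAMA3 (adjusted p = 1.0, diffSpliceDGE in edgeR), in a comparison that called 0.273% of 8434 genes. None of the 5 genes whose shares could be tested had an unadjusted p under 0.05.

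The ITGA6 mRNA ends in either of 2 cytoplasmic tails. The tail of alpha6A is read from an alternative exon at chr2:172501772-172501901 (130 bases), and where that exon is skipped the next exon gives the tail of alpha6B. The coding stretches of both tails are shown because they are what tells the transcripts apart, on the plus strand of hg38, at chr2:172501772-172501879 and chr2:172504091-172504252, with the stop codon in capitals.
ITGA6-212, alpha6A tail: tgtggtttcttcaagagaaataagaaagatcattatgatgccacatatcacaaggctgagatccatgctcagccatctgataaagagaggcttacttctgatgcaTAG
ITGA6-202, alpha6B tail: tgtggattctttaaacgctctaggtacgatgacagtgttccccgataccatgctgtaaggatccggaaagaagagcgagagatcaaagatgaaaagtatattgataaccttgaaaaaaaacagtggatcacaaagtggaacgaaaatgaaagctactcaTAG
The first codes for 105 bases and the second for 159 bases before the stop, in proteins of 1073 and 1091 residues. ITGA6-212 held 50.4% of the gene's counts, ITGA6-201 26.7% and ITGA6-202 16.3%. Transcripts with the exon summed to 94.2, 98.3 and 80.1 TPM in siCT and to 107, 91.8 and 95.001 TPM in siPDCD4. Those without it summed to 16.3, 19.6 and 11.5 TPM in siCT and to 19.4, 24.99 and 21.4 TPM in siPDCD4. Both sums overlapped between the groups, and siCT replicate 3 was lowest in each. The alpha6B share was 14.6% ± 2.04 with siCT and 18.4% ± 3.04 with siPDCD4 (SD, n = 3), with overlap. The share test did not call ITGA6 (adjusted p = 1.0, diffSpliceDGE in edgeR). ITGA6-202 itself had a log2 fold change of 0.45 ± 0.22 and did not pass in DESeq2 (adjusted p = 0.724), nor in edgeR, which called no transcript.

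**Figure D3:**
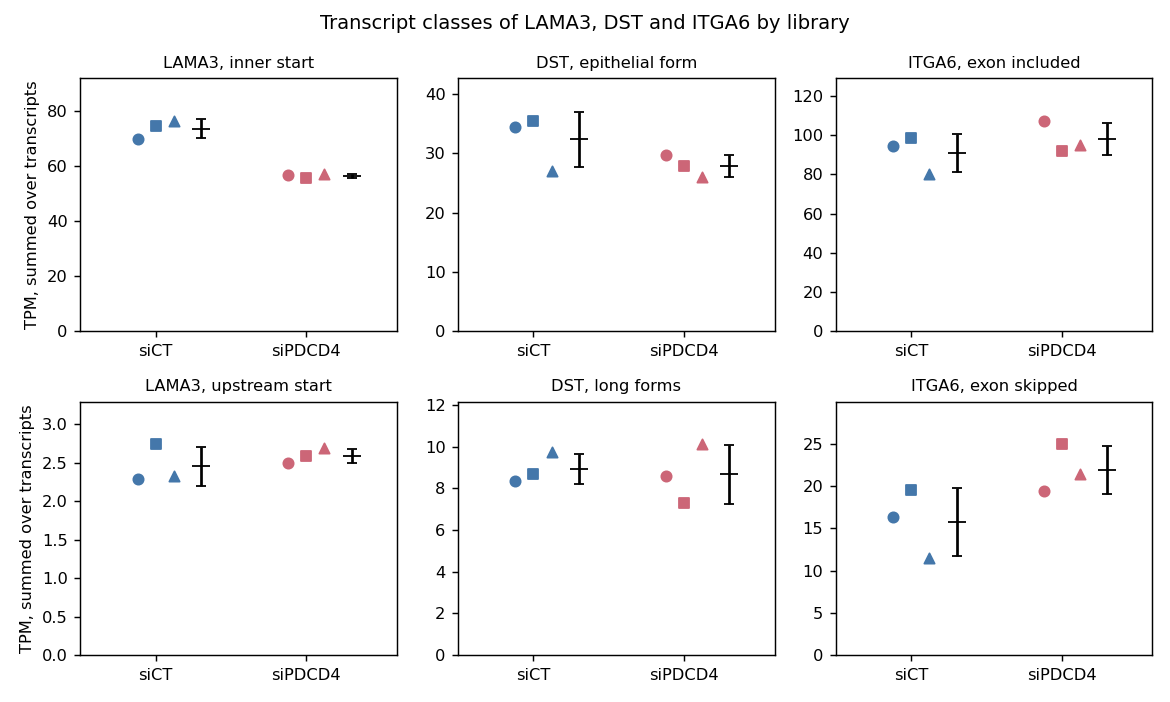
Summed TPM of transcript classes in each library, with the mean and SD (n = 3) in black, symbols for replicates 1 (circle), 2 (square) and 3 (triangle), siCT in blue and siPDCD4 in red. The inner start of LAMA3 lies lower in siPDCD4 (55.6 to 57.2 TPM) than in siCT (69.9 to 76.6 TPM), whereas the groups overlap for its upstream start and for the DST and ITGA6 classes.

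DST-205, the epithelial form (8971 bases), held 56.0% of the DST counts. It stood at 34.5, 35.5 and 27.0 TPM in siCT and at 29.7, 27.8 and 26.1 TPM in siPDCD4. siCT replicate 3 lay among the siPDCD4 libraries, so the groups overlapped although the gene total did not. DST-205 had a log2 fold change of -0.23 ± 0.14 and was not called in DESeq2, nor in edgeR, which called no transcript. The 12 transcripts with the long 3′ end share the coding end of the larger cytoskeletal forms known from muscle and nerve. Some of these transcripts are shorter than DST-205, and several had no counts. Together the 12 summed to 8.94 ± 0.714 TPM in siCT and 8.66 ± 1.40 TPM in siPDCD4 (SD, n = 3). The epithelial form made up 78.1% ± 3.98 and 76.3% ± 3.75 of both classes together, with overlap. Protein-coding transcripts of neither class were left out of this share, such as DST-208 and DST-220 (10.1 ± 1.59 TPM in siCT). Taken over estimated counts, a choice made after seeing the data, the shares were 65.7% in siCT and 63.3% in siPDCD4.

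The other genes were carried by few transcripts. None of these was called in DESeq2, and edgeR called no transcript of any gene. LAMB3-201 held 91.0% of LAMB3 counts at 119 ± 23.5 TPM in siCT and 108.6 ± 4.70 TPM in siPDCD4, and COL17A1-208 held 93.1% at 52.2 ± 4.85 and 55.1 ± 2.84 TPM (SD, n = 3). LAMB3 and COL17A1 had fewer than 2 transcripts with at least 5% of the counts, and their shares were not tested. ITGB4-203 held 72.9% and the retained-intron transcript ITGB4-207 held 14.5%. Retained-intron transcripts together took 13.4% to 15.0% of ITGB4 counts in siCT and 12.5% to 19.3% in siPDCD4, the highest share among the 7 genes. An alternative ITGB4 exon of 159 bases (chr17:75755055-75755213) was in 7.01% ± 2.79 of the classed TPM with siCT and 5.48% ± 1.40 with siPDCD4 (SD, n = 3), with overlap. CD151-202 held 54.1% of CD151 counts and CD151-203 held 25.2%.

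The other genes of the junction and of its surroundings were read from 7 lists of 94 genes, of which 85 were tested. The 3 genes with the smallest p of each list are named. Groups lying apart and DESeq2 calls rest on the same counts as that p, so they are no separate support. Over all genes tested, 7.14% lay lower and 6.81% higher in siPDCD4 without overlap. At an FDR of 5% in edgeR, 1 of the 85 was higher and none was lower (0.429% of all genes were called). An unadjusted p under 0.05 was found for 22 (8.62% of all genes), and DESeq2 called 9 (1.46% of all genes). The lists were chosen with earlier results of these data known, so these counts are no independent comparison with all genes. The gene called was CAMK2B, a subunit of a calcium-dependent kinase, listed among the kinases and regulators of hemidesmosomes. It rose from 2.25 ± 0.944 CPM to 7.90 ± 1.97 CPM (SD, n = 3), by 1.78 ± 0.32 on the log2 scale (adjusted p = 0.0483, edgeR). CAMK2B also passed in 5 of 9 other settings but lost its call whichever of the 6 libraries was removed (adjusted p from 0.0690 to 0.172). In the same list of 15, TP63, the master regulator of basal epithelial identity, had 0.36 ± 0.09 (adjusted p = 0.180 in edgeR and 0.0307 in DESeq2) and the receptor kinase MST1R had 0.37 ± 0.12 (adjusted p = 0.319).

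Among the 11 other laminin receptors none was called in edgeR. ITGB1, the beta1 subunit that also pairs with alpha6, was closest, with means of 1286 ± 51.8 and 957 ± 27.1 CPM (siCT and siPDCD4, SD, n = 3) and no overlap. Its log2 fold change was -0.43 ± 0.08 (adjusted p = 0.0541, edgeR). DESeq2 called ITGB1 (adjusted p = 1.7e-06), as did 6 of the 9 other settings in all and 1 of the 6 fits on 5 libraries. The basal cell adhesion molecule BCAM had 0.76 ± 0.25 and ITGA1 had -0.39 ± 0.14, both without overlap. Of the 9 other laminin chains, 2 lay above 0 and 7 below, with a median of -0.08, and none had an unadjusted p under 0.05. The 3 with the smallest p were LAMA1 at 0.59 ± 0.29, LAMA2 at -0.51 ± 0.26 and LAMB2 at -0.24 ± 0.13.

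None of the 14 plaque linkers and keratins passed in edgeR. KRT16, a keratin of activated epithelium, had means of 34.3 ± 0.910 and 23.5 ± 0.714 CPM (siCT and siPDCD4, SD, n = 3), a log2 fold change of -0.55 ± 0.10 (adjusted p = 0.0518, edgeR). It passed in DESeq2 (adjusted p = 0.00167) and in 4 of the 9 other settings in all, but in none of the 6 fits on 5 libraries (adjusted p from 0.0850 to 0.289). KRT8 had -0.32 ± 0.09 and KRT6A -0.30 ± 0.09, and all 3 keratins had groups apart. DESeq2 also called KRT8 (adjusted p = 0.0428). The list's median was -0.10, with 5 above 0 and 9 below.

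In the list of 15 tested basement membrane partners, 12 lay above 0 and 3 below, with a median of 0.18. TINAGL1, a matricellular protein, had 0.35 ± 0.08 (adjusted p = 0.149, edgeR), and the type IV collagen chain COL4A6 had 0.29 ± 0.10, both with groups apart, and DESeq2 called TINAGL1 (adjusted p = 0.0134). COL7A1, the collagen of the anchoring fibrils beneath hemidesmosomes, had means of 31.3 ± 12.98 and 56.5 ± 12.3 CPM (siCT and siPDCD4, SD, n = 3), with overlap. Its value was 0.86 ± 0.31 (adjusted p = 0.473, edgeR), and 1 of the 9 other settings called it.

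The list of proteases tied to laminin-332 or collagen XVII processing had 10 tested genes, the plasminogen activators PLAU and PLAT among them. Whether each acts on these proteins itself was not tested. An unadjusted p under 0.05 was found for 7 of the 10, against 8.62% of all genes. As this list too was chosen with earlier results of these data known, that is no independent comparison. None passed an FDR of 5% in edgeR. The 10 were split evenly, 5 above 0 and 5 below. Among the 7, ADAM9 (-0.26 ± 0.08, groups apart) and TLL1 (-0.77 ± 0.28, groups overlapping) were lower and the rest were higher. The urokinase PLAU had 0.45 ± 0.11 (adjusted p = 0.180, edgeR), the membrane-bound metalloprotease MMP14 0.38 ± 0.10 (adjusted p = 0.183), and the tissue plasminogen activator PLAT 0.50 ± 0.14 (adjusted p = 0.242). All 3, named for the smallest p of the list, were higher in every siPDCD4 library, as were 6.81% of all genes. DESeq2 called each of them, with adjusted p of 0.0407, 0.0392 and 0.0426. Among 11 tested tetraspanins, 10 lay above 0 with a median of 0.05 and none had an unadjusted p under 0.05. The 3 with the smallest p were TSPAN13 at 0.15 ± 0.13, CD82 at 0.17 ± 0.19 and CD9 at 0.08 ± 0.10.

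**Figure D4:**
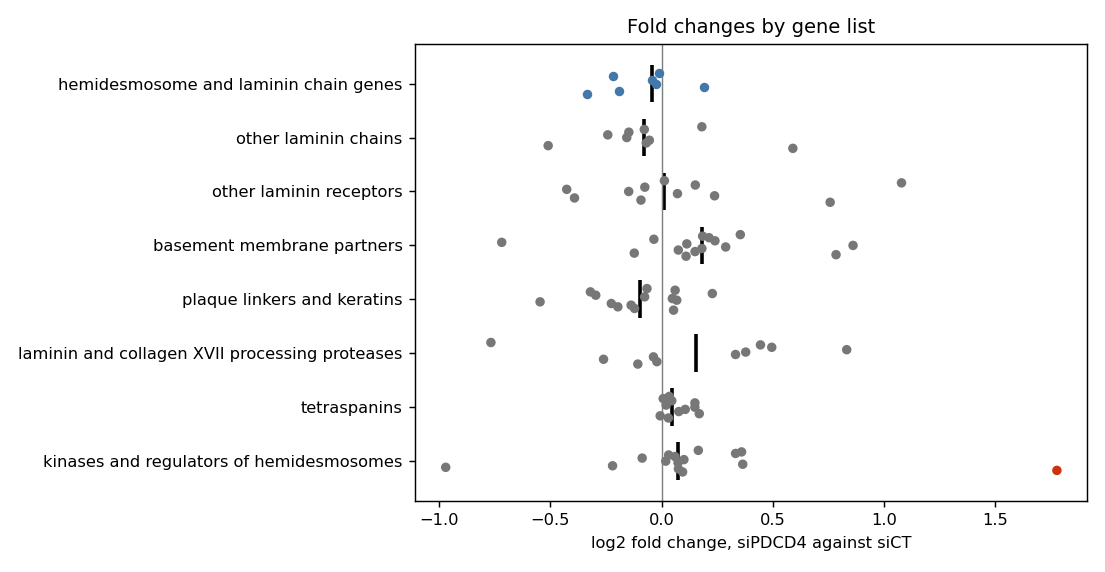
Log2 fold change in siPDCD4 against siCT of every tested gene, by list, with a black bar at the median of each list and the 7 hemidesmosome and laminin-332 genes in blue at the top. CAMK2B, in red at 1.78, is the only gene of the lists past an FDR of 5% in edgeR, and the 7 genes lie between -0.34 and 0.19.

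Over the 6 libraries the mean profile of the 7 genes (centred log2 CPM) was set by siCT replicate 3, at 0.12, while the other 5 libraries lay between -0.05 and 0.02. The genes whose levels followed this profile most closely were BCL2L2 (Pearson r = 0.993), CSAD (0.985), MAP3K15 (0.980), SFMBT2 (0.979) and SLCO5A1 (0.974), as a description over 6 libraries of differing depth. None of these 5 passed an FDR of 5%, with log2 fold changes between -0.52 and -0.13. The 7 genes did not move as a unit. LAMB3 and ITGB4 correlated at r = 0.877 and LAMA3 and DST at 0.807, whereas ITGA6 ran against LAMA3 at -0.942 and COL17A1 against ITGB4 at -0.782. These are descriptions over 6 libraries in 2 groups that share depth and siRNA.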

How the data were processed

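Total RNA of 6 MCF10A libraries was sequenced as paired reads of 75 bases from a stranded kit. Estimated counts and TPM per transcript were deposited by the authors, who made them with Salmon (version not given in the sources used here) against Ensembl transcripts of GRCh38. A read shared by transcripts is split between them, so values of transcripts are less certain than those of genes. Of 194142 listed transcripts, 181244 matched GENCODE release 44; the others held 5.47% to 6.21% of the counts and were not used here. Gene sums were rounded. They entered the quasi-likelihood test of edgeR 4.0.16 (R 4.3.3; robust, TMM, filterByExpr, offset for transcript length, group as the only factor), with Benjamini-Hochberg adjustment over all genes tested. The median biological coefficient of variation was 0.125. Transcripts were tested likewise without the offset, and isoform shares with diffSpliceDGE in genes with at least 2 transcripts of at least 5% of the counts. DESeq2 1.42.0, limma 3.58.1, other normalisations and filters, a replicate block and leaving out each library served as alternatives. The scripts were tested on simulated data. Tables and figures used Python 3.11.15, pandas 2.3.3 and matplotlib 3.10.9.

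The genes, lists and alternatives were chosen with earlier results of these data known. Genes named were the 7, PDCD4, the genes of each list past an FDR of 5% and its 3 with the smallest p, transcripts with at least 10% of a gene's counts, and the 5 genes most correlated with the mean profile; LAMA3-203 and the transcript classes were added for their known ends. A value after ± is an SE for a log2 fold change and an SD otherwise. Sequencing reads were not analysed here. One marker gene is not reported here.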

Additional observations from a re-analysis of the deposited data

How the results depend on the processing

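Against 56 genes called over all genes tested, 128 were called without the length offset, 108 without a filter on low counts, 191 with DESeq2, 102 with the replicate block, and 17 to 40 with a library left out. Of the 7 genes 0 were called in edgeR; DESeq2 called 1, LAMA3, and 1 of their transcripts, LAMA3-201, and the cause was not tested. With the replicate block none of the 7 was called, and LAMA3 had an adjusted p of 0.0852. The numbers were not taken to pair the libraries. The deviations of same-numbered libraries correlated weakly, at 0.089, 0.13 and 0.20. Of differently numbered libraries, siPDCD4 replicate 1 and siCT replicate 2 correlated at 0.11, and the rest lay between -0.21 and -0.037. Whether the numbers mark a pairing was not settled by these values. The adjusted p of LAMA3 ranged from 0.0127 to 0.185 over the other settings and from 0.136 to 0.502 with a library left out. Log2 fold changes with a library left out ran from -0.36 to -0.28 for LAMA3, -0.33 to 0.017 for LAMB3, 0.13 to 0.24 for ITGA6, -0.13 to 0.13 for ITGB4, -0.087 to 0.028 for COL17A1, -0.25 to -0.18 for DST and -0.089 to 0.060 for CD151. COL17A1 was at 0.022 without the length offset, its one change of sign outside the left-out libraries. Of 63 values in the other settings, 61 kept their direction and side of the threshold, and of 42 values with a library left out 35 did. The isoform share test called none of the genes in any setting run. The settings of the list genes were added after seeing the data. For LAMB3, ITGB4, COL17A1 and CD151, whose 95% intervals span 0, these 3 libraries a group could not tell the shift from 0. The intervals of LAMA3, DST and ITGA6 leave out 0 but are not adjusted for the number of genes tested. None of them passed in edgeR (adjusted p = 0.154, 0.427 and 0.568).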
